A study of Mus musculus with 60 samples.

Results

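The Wnt genes described here are 19 ligands, 12 receptors and co-receptors and 9 secreted inhibitors, 40 genes of the 20018 gene symbols with a probe on the array. The rule that picks them uses gene symbols and no measured value. A gene was taken if the RefSeq accession of a probe mapped to a Wnt, Fzd, Sfrp or Dkk gene of the numbered families, to Lrp5, Lrp6 or Wif1. Of the 47 probes found, the brighter was used for the 7 genes with a pair of probes. Wif1, Wnt7a and Fzd4 were highest in vehicle lung, Dkk4 and Wnt5b in vehicle liver, and Wnt4, Wnt10a, Fzd10, Sfrp2 and Sfrp4 in vehicle forestomach. No member passed the test at any dose of benzo(ghi)perylene.

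The animals were 20 male Muta Mouse, a transgenic strain that carries a bacterial lacZ reporter for mutation tests, about 10 weeks old, and RNA was taken from their lung, liver and forestomach. Mice received benzo(ghi)perylene, a polycyclic aromatic hydrocarbon, in olive oil by gavage daily over 28 days. Group D0 received the oil alone (0 mg/kg-bw/day), and D1 received 6.25, D2 12.5 and D3 25 mg/kg-bw/day, with 5 mice each, numbered 1 to 20 in that order. Tissues were collected 72 h after the last dose. Each of the 60 arrays held the Cy5-labelled RNA of 1 tissue of 1 mouse against Cy3-labelled reference RNA pooled from mouse cell lines, and a value below is the log2 ratio of Cy5 to Cy3. All animals share the transgene, sex and vehicle, and the RNA came from random sections of frozen tissue, so each value is an average over the cell types in a section. In such bulk RNA, fewer cells of a type and less RNA per cell cannot be told apart. Nothing in the labels placed the mice in separate experiments, so the p-values measure the spread between animals treated together.

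Wnt ligands are secreted, lipid-modified proteins that bind Frizzled receptors together with the co-receptors Lrp5 or Lrp6. In the canonical branch this spares beta-catenin from destruction, and beta-catenin then switches on target genes with transcription factors of the Tcf/Lef family, whereas ligands such as Wnt5a and Wnt11 are better known for branches that act on cell polarity and movement. Sfrp proteins and Wif1 bind the ligands outside the cell, and Dkk1, Dkk2 and Dkk4 bind the co-receptors. In lung the pathway is known for airway branching and for the upkeep of alveolar cells, in liver for the enzyme pattern around the central vein, and in stratified epithelium for the basal layer.

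Upstream sequence is shown for 4 members that stood out in opposite tissues, Wif1 and Wnt7a (highest in lung) and Fzd10 and Wnt4 (highest in forestomach), so that their base composition can be compared. Each is the 250 bases before the annotated start in RefSeq (build GRCm38.p6), on the gene's own strand, with capitals marking every match, on either strand, to 3 motifs: GCGTG (the core bound by the aryl hydrocarbon receptor, through which many compounds of this class act), GGGCGG (the motif bound by Sp1) and TATAAA (the motif bound by TBP).
Wif1, chr10:121033754-121034003 (plus strand): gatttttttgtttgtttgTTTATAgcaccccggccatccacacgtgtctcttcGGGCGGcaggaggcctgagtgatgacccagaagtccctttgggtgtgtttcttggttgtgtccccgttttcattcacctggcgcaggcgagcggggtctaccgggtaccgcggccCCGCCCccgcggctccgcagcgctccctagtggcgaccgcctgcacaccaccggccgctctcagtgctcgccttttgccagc
Wnt7a, chr6:91411354-91411603 (minus strand): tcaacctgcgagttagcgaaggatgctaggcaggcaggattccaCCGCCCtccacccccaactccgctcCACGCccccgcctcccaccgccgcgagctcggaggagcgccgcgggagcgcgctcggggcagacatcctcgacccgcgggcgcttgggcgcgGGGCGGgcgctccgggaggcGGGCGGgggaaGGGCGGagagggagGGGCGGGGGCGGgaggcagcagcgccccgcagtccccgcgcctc
Fzd10, chr5:128600856-128601105 (plus strand): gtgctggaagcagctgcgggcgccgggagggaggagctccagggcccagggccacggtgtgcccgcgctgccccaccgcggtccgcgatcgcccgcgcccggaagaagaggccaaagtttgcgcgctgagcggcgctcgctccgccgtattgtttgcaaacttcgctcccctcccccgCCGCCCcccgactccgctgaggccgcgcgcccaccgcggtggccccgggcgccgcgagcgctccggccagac
Wnt4, chr4:137277385-137277634 (plus strand): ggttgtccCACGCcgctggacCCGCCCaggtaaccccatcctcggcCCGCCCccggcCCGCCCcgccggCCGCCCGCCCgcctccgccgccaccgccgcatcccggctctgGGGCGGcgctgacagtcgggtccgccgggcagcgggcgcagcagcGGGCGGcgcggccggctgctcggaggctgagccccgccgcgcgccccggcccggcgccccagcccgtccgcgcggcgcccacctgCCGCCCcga

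The Wif1 window held 2 GGGCGG and 1 TATAAA match and had a GC content of 62.8% with 21 CpG. In the Wnt7a window 6 GGGCGG and 1 GCGTG matches were found at 77.6% GC and 34 CpG. The Fzd10 window held 1 GGGCGG match at 76.4% GC and 37 CpG. The Wnt4 window held 8 GGGCGG matches and 1 GCGTG match at 85.2% GC and 44 CpG, with 1 overlapping pair of matches. GGGCGG was thus in all 4 windows, GCGTG in 1 window of each tissue pattern and TATAAA in that of Wif1 alone. Member windows on 1 chromosome were left out, whereas windows there were kept among all windows. Of the 40 members, 26 had 29 such windows elsewhere in the RefSeq table. GCGTG was in 15 of these 29 and in 28.2% of all 32851 windows, GGGCGG in 21 and in 32.7%, and TATAAA in 5 and in 12.4%. The members' windows had a median GC content of 68% and 22 CpG, against 52.4% and 6 over all windows, and matches to short motifs of G and C are more frequent in such sequence. A match describes the letters and not a bound site.

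A probe was called detected where its Cy5 signal was well above background, and the share of all probes detected ran from 34.9% to 58.6% in lung, 36.3% to 48.3% in liver and 21.3% to 53.3% in forestomach. The arrays lay on 8 slides. Lung and forestomach of a mouse shared 1 of 5 slides, liver arrays lay on 3 others, and each dose kept its own array positions, so dose and position cannot be told apart. Nor can a difference of liver from lung or forestomach be told apart from a difference between slides. Hepatocyte markers had mean values of 7.05 to 7.76 in D0 liver, alveolar type 2 markers 5.40 to 5.95 in D0 lung and squamous markers 3.80 to 4.88 in D0 forestomach, as the tissue labels say. Several arrays also carried markers of other cell types. The lung array of D0 mouse 1 had skeletal muscle markers at a mean of 4.98 (8 of 8 detected, against -0.96 to -0.25 and 2 to 6 of 8 in the other D0 lungs) and squamous markers at 3.88 (7 of 8, against -0.25 to 0.08 and 2 to 5 of 8). The forestomach array of D0 mouse 2 had alveolar type 2 markers at 3.60 (6 of 6, against -0.65 to -0.21 and 1 to 2 of 6), and that of D0 mouse 5 had fat cell markers at 5.57 (7 of 8, against 1.29 to 2.60). All 8 glandular stomach markers were detected on 12 of the 20 forestomach arrays, D0 mice 2 (mean 6.48) and 3 (mean 5.81) among them, whereas the other 3 D0 arrays had 2 to 4 of 8 at means of 0.66 to 1.08. The tissue comparison was repeated without each of these arrays, and calls that changed are given below.

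Of the 40 members, 19 were detected on all 20 lung arrays, 13 on all liver arrays and 11 on all forestomach arrays. Those detected on no array numbered 8 in lung, 15 in liver and 11 in forestomach. A member entered a tissue's test if 5 or more of its arrays detected it. That left 29 in lung, 21 in liver and 29 in forestomach, 18 of them in all 3 tissues. The tissue comparison used the 34 members that passed in at least 1 tissue, so it leaves out 6: Wnt2b, Wnt3, Wnt3a, Wnt8a and Wnt8b, ligands known mainly from embryonic patterning, and Dkk1, an inhibitor needed for head formation. Of these Dkk1, Wnt3, Wnt3a and Wnt8b were detected on no array of any tissue. The plot of all members over all arrays shows the blocks described below.

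**Figure D1:**
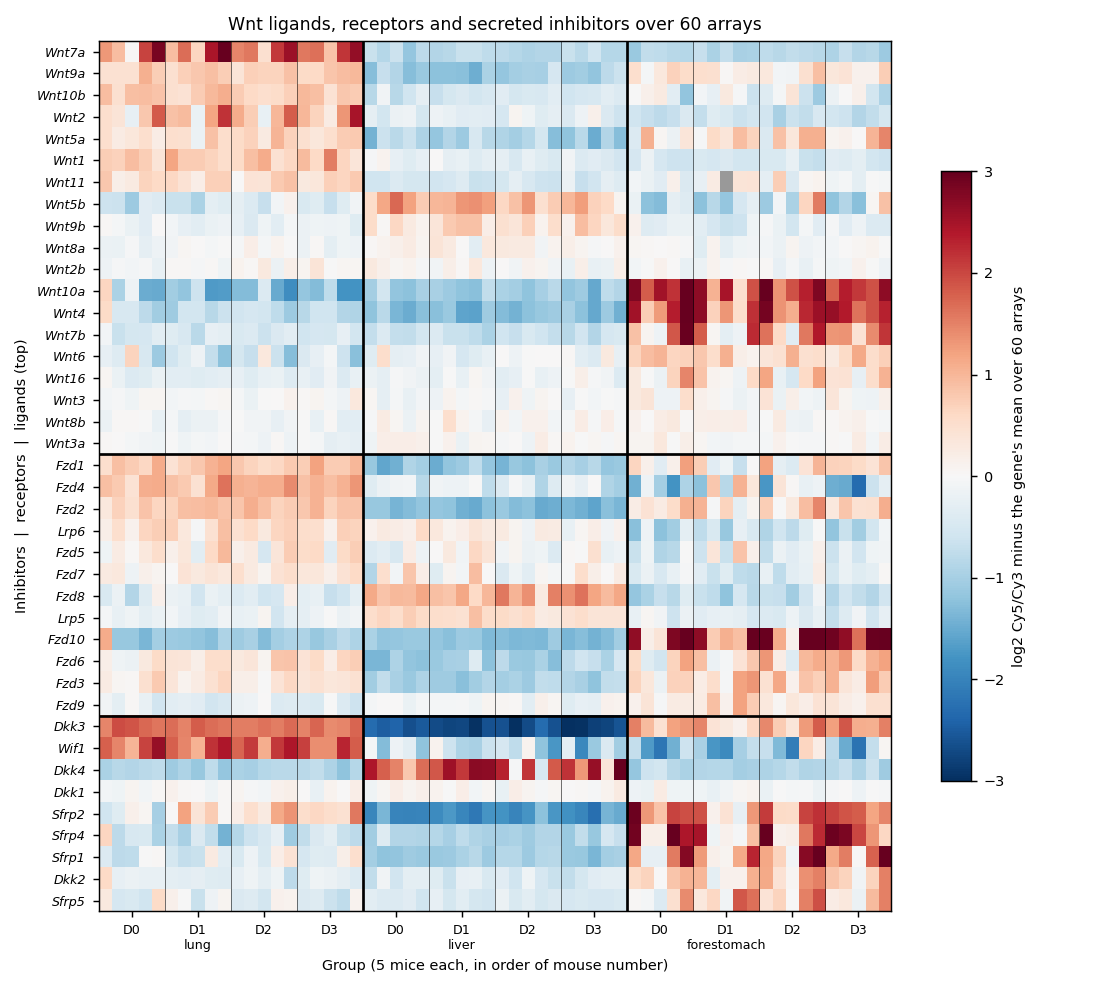
Log2 Cy5/Cy3 of the 40 members (vertical axis, ligands above, receptors in the middle, inhibitors below) on the 60 arrays (horizontal axis, 5 mice per dose and tissue), each gene centred on its own mean over all arrays and the colour scale clipped at -3 and 3 (grey: missing value). The blocks follow tissue, with Wnt7a and Wif1 red in lung, Dkk4 and Wnt5b in liver and Wnt10a, Wnt4 and Fzd10 in forestomach, and no block follows dose.

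The first question was which members differ between the tissues of vehicle mice. A member was called at a limma adjusted p of 0.05 or less and a difference of at least 1.5-fold. Between lung and liver 20 of 34 members were called, where 44.4% of all probes tested were. Of these 16 were higher in lung (25.4% of all probes were called in that direction) and 4 in liver (19%). Lung and forestomach differed in 20 members (33.3% of all probes), with 10 higher in lung (18.8%) and 10 in forestomach (14.5%). Liver and forestomach differed in 24 (39.2% of all probes), 6 higher in liver (18.2%) and 18 in forestomach (21%). The median difference over the 34 members was 0.58 on the log2 scale for lung minus liver, 0.07 for lung minus forestomach and -0.65 for liver minus forestomach, against 0.06, 0.02 and -0.02 over all probes tested. The 5 values of each tissue did not overlap for 20, 11 and 21 of the 34 members in these 3 comparisons, and for 50.2%, 28.7% and 38.3% of all probes tested.

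With the mouse as a replicate block (each mouse gave all 3 tissues), 20, 20 and 23 members were called, and the 1 call lost was Fzd4 in liver against forestomach (adjusted p 0.0497 without the block and 0.0567 with it). Without the lung array of D0 mouse 1 the counts were 19, 20 and 23, without the forestomach array of D0 mouse 2 they were 20, 20 and 24, and without that of D0 mouse 5 they were 20, 18 and 21. Without that of mouse 5, Dkk2, Sfrp1 and Wnt16 were no longer called in lung against forestomach, and Fzd1 was (0.62, adjusted p 0.0167), and Fzd4, Sfrp5 and Wnt16 were no longer called in liver against forestomach. Without the 12 forestomach arrays that held all glandular markers they were 21, 21 and 24, with Sfrp1 gained in lung against liver, and Fzd6 and Sfrp5 gained and Dkk3 lost in lung against forestomach.

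Called higher in lung than in both other tissues were 8 members (13.2% of all probes), in liver 4 (13.3%) and in forestomach 10 (8.28%). Dkk2, Fzd10 and Wnt16 had passed the detection filter in forestomach alone, Dkk4 in liver alone, and Wnt7a and Wnt10b in lung alone. For these genes the filter itself favours the tissue in which they were called highest. Without the forestomach array of D0 mouse 5, which carried fat cell markers, 7 remained highest in forestomach, as Dkk2, Sfrp1 and Wnt16 were lost, and without the arrays that held all glandular markers 12 were. The count in lung was 9 and 7 in these settings. Lowest by the same rule were 0 in lung (4.79% of all probes), 9 in liver (12.7%) and 2 in forestomach (4.82%). The 9 in liver were Wnt4, Wnt5a, Wnt9a, Fzd1, Fzd2, Fzd3, Fzd6, Dkk3 and Sfrp2, and those in forestomach Fzd4 and Lrp6. The count in liver was 8 without the lung array of D0 mouse 1 and 10 without the glandular arrays. The place of Fzd4 rests on an adjusted p of 0.0497 in liver against forestomach, which was 0.0567 with the mouse block, 0.0521 without the lung array of D0 mouse 1 and 0.0556 without the forestomach array of D0 mouse 5.

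Among the 14 ligands tested, 9 were called in lung against liver (8 higher in lung), 10 in lung against forestomach (5 in each direction) and 8 in liver against forestomach (7 higher in forestomach). Of all probes tested 44.4%, 33.3% and 39.2% were called in these comparisons. The following values are log2 ratios of mice 1 to 5 in order. Wnt10a, a ligand known from skin appendages and teeth, gave -0.14, -1.11, -0.41, -0.76 and 0.18 in forestomach, -2.29, -3.88, -3.08, -4.41 and -4.44 in lung, and -3.95, -3.48, -4.12, -4.17 and -3.91 in liver. Every forestomach value lay above every lung and liver value, and the highest lung value was that of mouse 1, whose lung array carried squamous markers. The mean was -0.45 ± 0.51 (SD, n = 5) in forestomach, against -3.62 ± 0.93 in lung and -3.93 ± 0.27 in liver, which is 11.15-fold over liver (liver minus forestomach -3.48 ± 0.33 (SE), limma adjusted p 2.9e-13) and 9.02-fold over lung (adjusted p 1.45e-11).

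Wnt4, a ligand of kidney and reproductive tract development that is also made in stratified epithelium, gave 2.27, 0.49, 1.01, 2.09 and 2.76 in forestomach, 0.32, -0.74, -0.74, -1.05 and -1.29 in lung and -1.46, -1.06, -1.62, -1.74 and -1.52 in liver. Forestomach did not overlap the other tissues, and its lowest values were those of mice 2 and 3, whose arrays carried glandular markers. It was 9.21-fold higher in forestomach than in liver (-3.20 ± 0.32, SE, adjusted p 9.95e-13) and 5.37-fold higher than in lung (adjusted p 6.81e-09). Its lung and liver means, -0.70 ± 0.62 and -1.48 ± 0.26, differed by 0.78 (adjusted p 0.0299), a call lost without the lung array of mouse 1, the highest of the lung values, without mouse 3 or mouse 4, and with the deposited log2 ratios.

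Wnt7a, known for patterning limbs and the female reproductive tract, gave 2.07, 1.69, 0.80, 2.79 and 3.61 in lung. Its liver values, -0.38 to 0.12, and forestomach values, -0.35 to 0.03, were not well above background on any array. The lung values differed widely among mice and still lay wholly above the others. Against a tissue in which a probe was not detected, a fold is a bound, taken from the lowest signal well above background on each array. These bounds come from the channels after loess and between-array scaling, and with no dye swap they are open to dye bias. By this measure Wnt7a was at least 3.50-fold higher in lung than in liver (adjusted p 3.25e-08) and at least 3.61-fold higher than in forestomach (adjusted p 4.29e-08).

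Wnt5b, a relative of Wnt5a, was the only ligand called highest in liver. It gave 2.49, 3.11, 3.66, 3.14 and 2.70 in liver, 1.33, 1.29, 0.84, 1.59 and 1.54 in lung and 1.75, 0.70, 0.64, 1.66 and 1.55 in forestomach. All liver values exceeded all others, whereas lung and forestomach overlapped. Its mean of 3.02 ± 0.45 in liver was 3.24-fold over lung (1.32 ± 0.30, adjusted p 1.08e-05) and 3.38-fold over forestomach (1.26 ± 0.54, adjusted p 6.98e-06).

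The remaining ligands had smaller differences. Wnt2, a ligand of lung mesenchyme and endothelium, averaged 1.33 ± 0.77 in lung, 0.33 ± 0.19 in liver and 0.03 ± 0.14 in forestomach, where it was not detected, and was called higher in lung than in liver (difference 1.00, adjusted p 0.00309) and at least 1.78-fold higher than in forestomach (0.000253). Only 1 of the 5 liver arrays detected Wnt2, its lung and liver values overlapped, and the call against liver was lost without mouse 5 and with a filter on all arrays of a tissue. Wnt10b, an inhibitor of fat cell formation, was detected in lung alone (0.59 ± 0.19), at least 2.24-fold over liver and 1.76-fold over forestomach. Wnt11, known from cell movement in gastrulation, averaged 1.03 in lung against -0.01 in liver and 0.34 in forestomach, and its call against forestomach was lost with processed signals and with tissue means over doses. Wnt5a and Wnt9a, the latter known from joints, were called lowest in liver, with means of 0.32, -0.93 and 0.14 and of 0.74, -0.94 and 0.51 in lung, liver and forestomach. Wnt7b, an epithelial ligand of the developing lung, had its highest mean in forestomach (1.62 ± 1.30, against 0.07 ± 0.23 in lung and -0.14 ± 0.14 in liver), as had Wnt6 (-0.57 against -1.67 and -1.45) and Wnt16 (0.79 against 0.12 and 0.19). Both Wnt16 calls were lost without the forestomach array of mouse 5 (-0.42 for lung minus forestomach and -0.35 for liver minus forestomach, adjusted p 0.0962 and 0.163), and both were lost without mouse 4. The Wnt16 call against liver was also lost with normexp background correction, processed signals, the deposited log2 ratios and tissue means over all 4 doses. Of the 5 vehicle arrays of lung and forestomach, 1 and 3 detected Wnt16, 1 and 2 Wnt6, and 2 and 3 Wnt7b. Wnt9b, made by endothelium of the central vein in liver, averaged 0.63 in liver, 0.19 in lung and 0.11 in forestomach, where it was not detected. It was 1.36-fold over lung, where 2 of 5 arrays detected it, and at least 1.15-fold over forestomach. Neither difference was called, whereas both were with processed signals and with tissue means over all 4 doses.

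Wnt1, the founding member of the family, was called highest in lung (1.55 ± 0.19, against 0.70 ± 0.19 in liver and 0.37 ± 0.19 in forestomach). Its second probe was detected on 1 lung array and on no other array, with means of 0.02, -0.01 and 0.14, and both Wnt1 calls were lost when probes of a gene were averaged. The second probe of Wnt16 was detected on 12 of the 20 forestomach arrays and on no lung or liver array. It gave -1.01 for lung minus forestomach and -0.99 for liver minus forestomach, both called, with lung and liver dim.

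**Figure D2:**
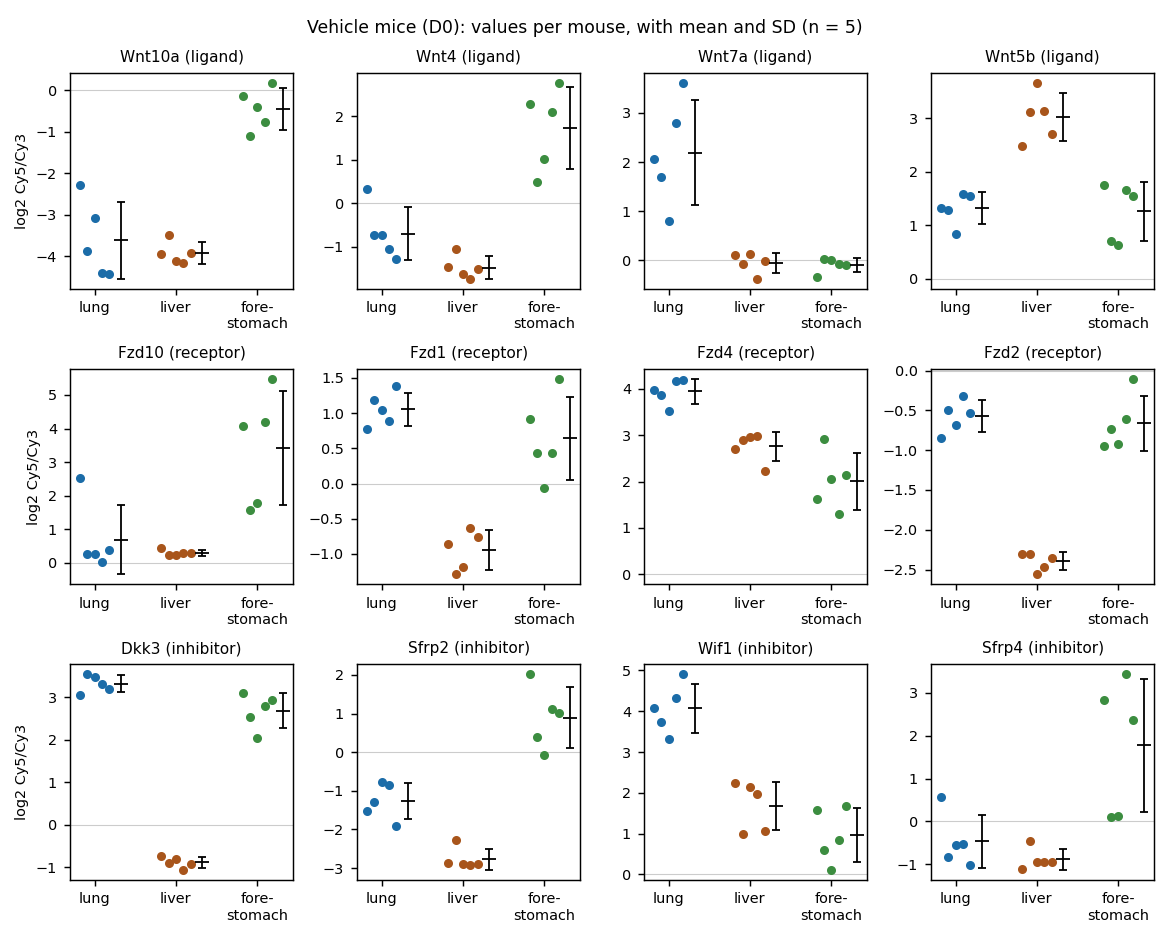
Log2 Cy5/Cy3 (vertical axis) in lung, liver and forestomach of the 5 vehicle mice for the 4 ligands, 4 receptors and 4 inhibitors with the largest differences between tissue means. Points are mice in order of number and the bar beside them is the mean with SD. Dkk3 and Fzd2 in liver form tight groups below the other tissues, and the forestomach values of Fzd10 and Sfrp4 fall into 3 high and 2 low mice.

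The 12 receptors and co-receptors were all tested. In lung against liver 7 were called (5 higher in lung), in lung against forestomach 4 (3 higher in lung) and in liver against forestomach 9 (4 higher in liver). The shares of all probes called were 44.4%, 33.3% and 39.2%. Fzd10, a Frizzled with a narrow tissue range, gave 4.06, 1.57, 1.78, 4.20 and 5.49 in forestomach, 2.51, 0.25, 0.25, 0.02 and 0.37 in lung, and 0.22 to 0.44 in liver, where no array detected it. The single high lung value was that of mouse 1 and overlapped the forestomach range, and the low forestomach values were those of mice 2 and 3. Liver minus forestomach was -3.13 ± 0.50 (SE, adjusted p 3.7e-07), with the liver signal dim. Lung minus forestomach was -2.74 (adjusted p 7.45e-06), but only 1 of the 5 lung arrays, that of mouse 1, detected Fzd10, so no fold is given. The call was kept without that array.

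Fzd4, the receptor through which norrin acts on blood vessels, gave 3.98, 3.86, 3.51, 4.17 and 4.19 in lung, 2.70, 2.90, 2.97, 2.98 and 2.23 in liver and 1.63, 2.91, 2.05, 1.29 and 2.14 in forestomach. Lung lay above both tissues without overlap, and liver and forestomach overlapped. Its mean in lung, 3.94 ± 0.28, was 3.83-fold over forestomach (2.00 ± 0.61, adjusted p 2.42e-06) and 2.27-fold over liver (2.76 ± 0.32, adjusted p 0.00172). The highest of these forestomach values was that of mouse 2, whose array carried alveolar markers and all glandular stomach markers. On D1 forestomach arrays, whose alveolar type 2 markers had means of -0.53 to -0.20, Fzd4 reached 4.12 (mouse 9). The part of either marker set in the Fzd4 values was not tested.

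Fzd1 and Fzd2, a closely related pair of receptors, were both lowest in liver. Fzd1 gave 0.77, 1.18, 1.04, 0.89 and 1.38 in lung, 0.92, 0.43, -0.06, 0.43 and 1.49 in forestomach and -0.86, -1.29, -1.18, -0.63 and -0.76 in liver. Fzd2 gave -0.85, -0.49, -0.68, -0.32 and -0.53 in lung, -0.95, -0.73, -0.92, -0.61 and -0.10 in forestomach and -2.31, -2.30, -2.56, -2.47 and -2.35 in liver. For both genes every liver value lay below all others while lung and forestomach overlapped. Lung exceeded liver 3.98-fold for Fzd1 (1.99 ± 0.22, SE, adjusted p 3.36e-11) and 3.54-fold for Fzd2 (1.82 ± 0.18, adjusted p 6.85e-13). The second probe of Fzd2 was detected on 3 lung arrays, 2 forestomach arrays and no liver array and was not tested. With both probes of Fzd2 averaged, lung minus liver was 0.96 in place of 1.82 (adjusted p 8.55e-08).

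Fzd3 and Fzd6, receptors known from planar cell polarity, were lowest in liver as well. Fzd3 averaged 0.70 ± 0.31 in lung, 0.82 ± 0.37 in forestomach and -0.59 ± 0.15 in liver, where it was not detected, at least 2.36-fold below lung and 2.60-fold below forestomach. Fzd6 averaged 0.49 ± 0.31 in lung, 0.65 ± 0.75 in forestomach and -0.87 ± 0.18 in liver, 2.56-fold below lung (adjusted p 2.92e-06) and 2.86-fold below forestomach (4.01e-07, detected on 3 of 5 forestomach arrays). Receptors called highest in liver were Fzd8 (1.83 ± 0.12, against 0.46 ± 0.38 in lung and 0.02 ± 0.30 in forestomach), and the co-receptor Lrp5 (1.28 ± 0.09, against 0.50 ± 0.09 and 0.46 ± 0.25, 1.72-fold and 1.76-fold).

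The other co-receptor, Lrp6, was lowest in forestomach (0.57 ± 0.54, against 1.81 ± 0.27 in lung and 1.63 ± 0.19 in liver), 2.35-fold below lung and 2.08-fold below liver. Its second probe gave 0.51 for lung minus forestomach, which was not called, and 0.79 for liver minus forestomach, which was. Fzd5, a receptor of gut epithelium, was called higher in lung than in forestomach (adjusted p 0.00961), where 1 of 5 arrays detected it. Its second probe gave 0.30 there and was not called, and the call was lost without mouse 4. Fzd7 (0.19, 0.18 and -0.21 in lung, liver and forestomach) and Fzd9 (-0.47, -0.30 and -0.05, undetected in vehicle lung and liver) were called in none of the 3 comparisons. Both were called in lung against forestomach with processed signals and with tissue means over all 4 doses, and in liver against forestomach with processed signals.

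Of 8 inhibitors tested, 4 were called in lung against liver (3 higher in lung), 6 in lung against forestomach (2 higher in lung) and 7 in liver against forestomach (6 higher in forestomach). Beside these counts stand 44.4%, 33.3% and 39.2% of all probes. Dkk3, a divergent Dickkopf protein that does not act on the co-receptors as its relatives do, gave 3.05, 3.54, 3.47, 3.30 and 3.19 in lung, 3.09, 2.53, 2.05, 2.80 and 2.92 in forestomach and -0.73, -0.89, -0.81, -1.06 and -0.93 in liver. Liver stood far below both tissues with little spread, and lung and forestomach overlapped at 1 forestomach value. Dkk3 was 18.33-fold higher in lung than in liver (4.20 ± 0.19, SE, adjusted p 1.97e-26), and 11.82-fold higher in forestomach than in liver (adjusted p 2.78e-23). The 1.55-fold excess of lung over forestomach (adjusted p 0.00388) was lost with the deposited log2 ratios, the scanner's processed signals, without mouse 2 or mouse 3, and without the arrays that carried all glandular markers.

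Wif1, which binds Wnt proteins through its own domain, gave 4.09, 3.74, 3.31, 4.32 and 4.91 in lung, 2.23, 0.99, 2.13, 1.96 and 1.07 in liver and 1.57, 0.59, 0.11, 0.85 and 1.67 in forestomach. All lung values exceeded all others, and liver and forestomach overlapped. Its mean of 4.07 ± 0.60 in lung was 8.67-fold over forestomach (0.96 ± 0.66, detected on 3 of 5 arrays, adjusted p 4.74e-09) and 5.27-fold over liver (1.67 ± 0.60, adjusted p 8.96e-07). On the forestomach array of mouse 2, which carried alveolar markers, Wif1 was 0.59, within the range of the other forestomach arrays, and Wnt7a was 0.03, the highest of the undetected forestomach values.

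Sfrp2, a matrix-associated inhibitor made by fibroblasts, gave 2.02, 0.39, -0.07, 1.11 and 1.01 in forestomach, -1.52, -1.29, -0.77, -0.85 and -1.91 in lung and -2.88, -2.28, -2.90, -2.91 and -2.89 in liver, where it was not well above background. The 3 tissues did not overlap, and mice 2 and 3 were again lowest in forestomach. Sfrp2 was at least 11.16-fold higher in forestomach than in liver (liver minus forestomach -3.67 ± 0.33, SE, adjusted p 4.14e-14), 4.47-fold higher than in lung (adjusted p 2.53e-07), and at least 2.82-fold higher in lung than in liver (adjusted p 9.12e-05).

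Sfrp4 gave 2.83, 0.11, 0.12, 3.44 and 2.37 in forestomach, 0.58, -0.84, -0.55, -0.52 and -1.02 in lung and -1.11, -0.46, -0.95, -0.95 and -0.96 in liver, where it was not detected. Mice 2 and 3 stood apart in forestomach, and the lung value of mouse 1 lay above theirs. Forestomach was at least 5.73-fold over liver (adjusted p 5.04e-06) and 4.74-fold over lung (adjusted p 0.000107), with 3 of 5 arrays of either tissue detecting Sfrp4. Sfrp1 also had its highest mean in forestomach (1.86 ± 1.28, against 0.48 ± 0.40 in lung and -0.25 ± 0.08 in liver), at least 2.63-fold over liver and 2.61-fold over lung, detected on 3 of 5 arrays of both lung and forestomach. Dkk2 (0.60 against -0.08 and -0.43) was likewise called highest there, and Sfrp5 (0.81 ± 0.71 in forestomach) was called against liver (at least 1.63-fold, adjusted p 0.046). These calls rested in part on the forestomach array of mouse 5, which carried fat cell markers. Without it, lung minus forestomach was -0.94 for Sfrp1 (adjusted p 0.0782) and -0.57 for Dkk2 (adjusted p 0.0415, under 1.5-fold), and liver minus forestomach was -0.42 for Sfrp5 (adjusted p 0.245), none of them called. The Dkk2 call against lung was also lost without mouse 4, and the Sfrp5 call without any 1 of mice 1, 2, 4 and 5. The Sfrp5 call was lost as well without any 1 of the dosed mice 7, 12, 16, 17 and 19, with the deposited log2 ratios and with no detection filter.

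Dkk4, an inhibitor that binds the co-receptors, was detected on 19 of 20 liver arrays and on no lung or forestomach array. The vehicle livers gave 3.30, 2.65, 2.36, 1.68 and 2.55, all above the lung and forestomach values, whose means were 0.02 and 0.05. The difference was at least 3.81-fold over lung (adjusted p 5.49e-09) and 3.67-fold over forestomach (adjusted p 9.01e-09). Over all 20 mice the liver values ran from 0.38 to 4.00.

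Values of the members also varied between slides, each of which held different mice. An F test of slide within dose called 17 of the 29 members tested in lung (56.5% of all probes), 4 of 21 in liver (26.5%) and 17 of 29 in forestomach (37.4%), and the median range of the slide means over the members was 0.61, 0.23 and 0.98. In lung the slide means ran from 0.56 to 2.75 for Wnt2 (adjusted p 4.78e-08) and from 1.27 to 3.55 for Wnt7a (adjusted p 4.32e-07), with the lowest on the slide with the smallest share of probes detected in lung and the highest on the slide with the largest (39% and 58.4%). Slide means of Sfrp1 ran from 0.81 to 3.83 in forestomach (adjusted p 2.86e-05), those of Fzd10 from 2.21 to 5.02 (0.000823) and those of Wnt7b from 0.39 to 2.93 (0.000789). The share of probes detected, the mice and the slide changed together, and their parts in these values were not tested.

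Some members were also low on forestomach arrays that carried glandular markers, and which members follow these markers was not tested. Arrays left out for having all 8 detected numbered 2 in D0, 4 in D1, 3 in D2 and 3 in D3. Without them the difference of liver from forestomach was -4.29 for Fzd10 (-3.13 with them), -3.85 for Wnt4 (-3.20) and -3.76 for Sfrp4 (-2.66). These 3 genes were among those low in mice 2 and 3, and Fzd10 and Sfrp4 were not detected in vehicle liver. For Wnt5b, called higher in liver, the difference went from 1.76 to 1.37.

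**Figure D3:**
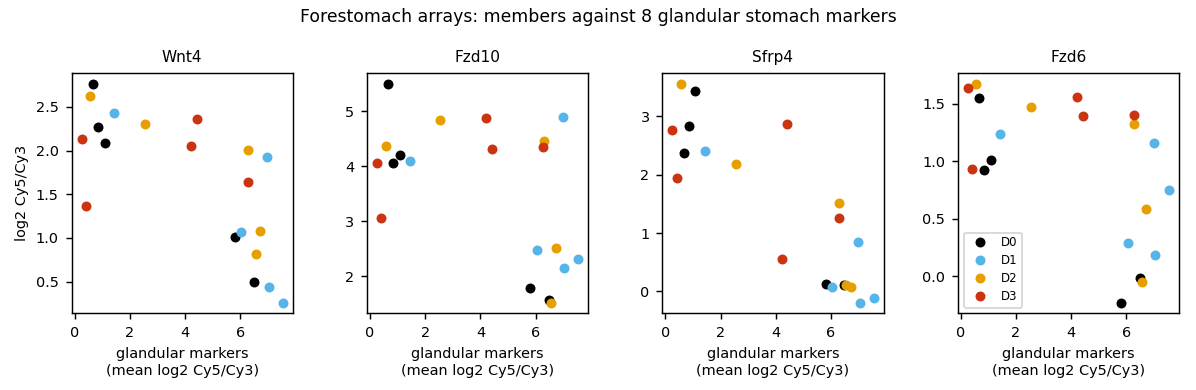
Log2 Cy5/Cy3 of Wnt4, Fzd10, Sfrp4 and Fzd6 (vertical axes) against the mean of 8 glandular stomach markers (horizontal axis, log2 Cy5/Cy3) on the 20 forestomach arrays, coloured by dose group. Vehicle mice 2 and 3 (markers at 6.48 and 5.81) lie low in all 4 panels, and arrays of every dose lie on both sides.

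The second question was whether benzo(ghi)perylene changed the members. Each dose was compared with D0 within a tissue by limma, and 0 members were called at any dose in any tissue, as were 0% of all probes tested. At D3 the number of members at an unadjusted p under 0.05 was 4 of the 29 tested in lung, 4 of the 21 in liver and 0 of the 29 in forestomach, against 4.81%, 12.1% and 1.5% of all probes tested. The counts were 2, 2 and 3 at D1 (2.22%, 3.03% and 9.37% of all probes) and 5, 0 and 0 at D2 (3.4%, 4.15% and 3.65%). Changes at D3 ran from -0.67 to 1.09 in lung (median 0.06, 19 higher and 10 lower), from -0.36 to 0.51 in liver (median -0.03, 10 higher and 11 lower) and from -0.31 to 0.73 in forestomach (median 0.13, 21 higher and 7 lower). Of all probes tested 52.6%, 49.9% and 52.2% were higher at D3. A slope on dose was fitted as well, and 0 members were called in any tissue, whereas 0.239% of all probes were called in liver and 0% in lung and forestomach. Nor was the D3 change called as different between tissues for any of the 34 members (0% of all probes), 1 member in each comparison having an unadjusted p under 0.05 (2.96%, 2.06% and 4.26% of all probes).

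With slide as a block, 0 members were called at D3, while 0.0677% of all probes were called in lung, 0.0927% in liver and 0% in forestomach. In this fit 9, 5 and 2 members had an unadjusted p under 0.05, as had 15.6%, 17.9% and 6.42% of all probes. Of the slopes in this fit 1 member, Fzd6 in liver, was called, beside 2.61% of all probes in liver, 0.306% in lung and 0% in forestomach. The following members are those with the smallest p at D3 in each tissue and those called with the block.

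**Figure D4:**
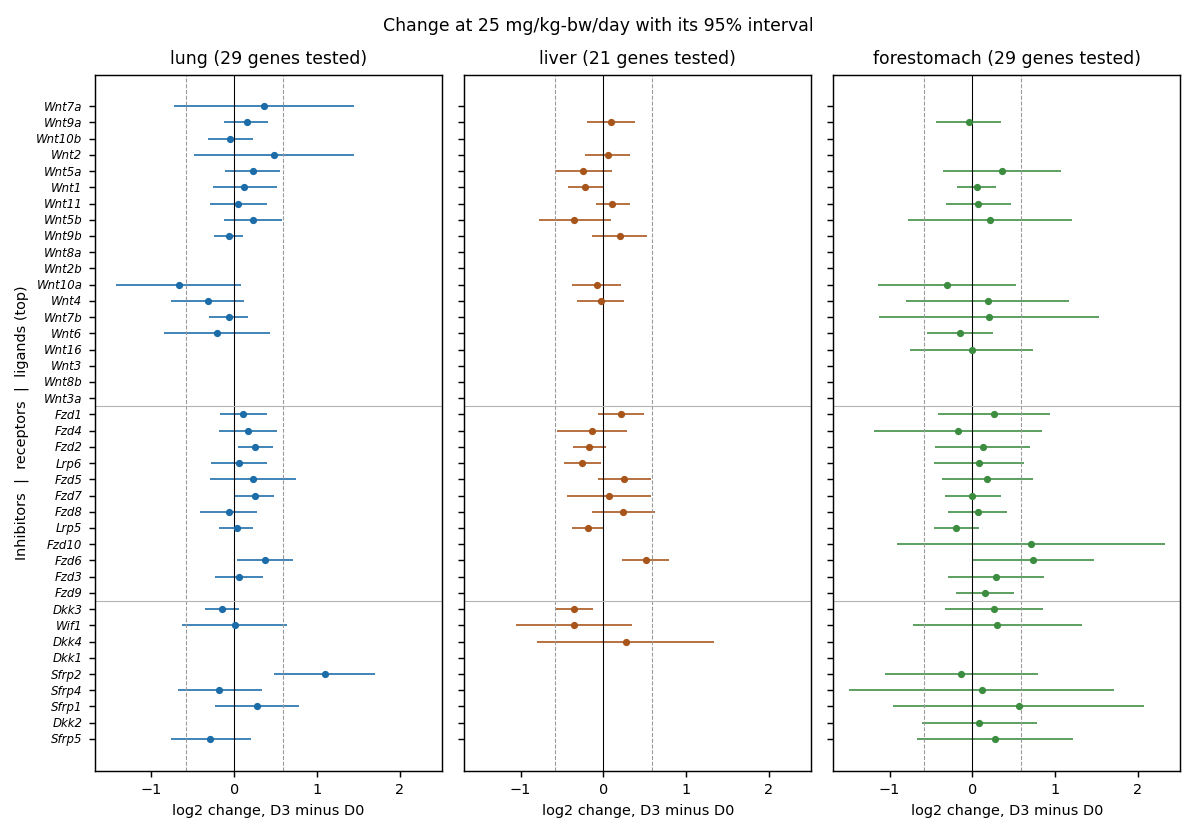
Change at D3 (log2 Cy5/Cy3, D3 minus D0, horizontal axis) with its 95% interval for every member tested in lung, liver and forestomach; members with no point were not tested there. Dashed lines mark a 1.5-fold change in either direction, and the Sfrp2 interval in lung (0.48 to 1.70) and the Fzd6 interval in liver (0.23 to 0.79) lie above 0.

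Sfrp2 had the largest change at D3 of the members in lung. Its values were -1.52, -1.29, -0.77, -0.85 and -1.91 at D0, then -0.90, 0.30, -0.52, -0.16 and -0.89 at D1, -0.73, -0.42, -0.65, 0.21 and 0.42 at D2, and -0.39, -0.30, -0.39, -0.47 and 0.67 at D3. All D2 and D3 values lay above all D0 values, and the D1 values overlapped D0. The difference from D0 was 0.83 at D1, 1.03 at D2 and 1.09 ± 0.29 (SE, 95% interval 0.48 to 1.70) at D3, which did not pass the test (limma adjusted p 0.752, and 0.0819 with the slide block). The highest D3 value, of mouse 20, came from a lung array on which hepatocyte markers were detected (6 of 6, mean 3.37), and without that mouse the difference was 0.88. Fibroblast markers, all 6 detected on every array, had means of -0.42 to 0.18 over the D0 lungs and -0.18 to 0.44 at D3, and mesothelial markers -1.53 to 0.53 and 0.12 to 0.85, and their part in the difference was not tested. In forestomach Sfrp2 differed by -0.14 at D3.

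Fzd2 in lung, -0.85 to -0.32 at D0, gave -0.36, -0.13, -0.50, -0.31 and -0.31 at D3. The groups overlapped, and the difference of 0.25 ± 0.10 (SE) was not called (adjusted p 0.938, and 0.155 with the slide block). It was 0.01 with both Fzd2 probes averaged. Wnt2, with 1.17, 1.07, 0.42, 1.47 and 2.52 in lung at D0 and 1.66, 1.35, 0.91, 1.99 and 3.14 at D3, overlapped widely between doses. Mice on 1 slide kept a similar order at each dose, and the difference of 0.48 had an SE of 0.46 without the slide block and 0.10 with it. Its adjusted p was then 0.0479, but the size was under 1.5-fold and it was not called.

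Fzd6 was the member with the smallest adjusted p at D3 in liver. Its liver values were -1.02, -1.02, -0.58, -0.83 and -0.88 at D0, -0.76, -0.65, -0.62, -0.05 and -0.88 at D1, -0.44, -0.76, -0.79, -0.59 and -0.92 at D2 and -0.43, -0.25, -0.34, -0.59 and -0.16 at D3. The D3 and D0 ranges touched at 1 mouse each, and D1 and D2 lay across both. At D3 the difference was 0.51 ± 0.13 (SE, 95% interval 0.23 to 0.79), with an adjusted p of 0.151 and of 0.0635 with the slide block. The slope was 0.45 ± 0.13 over 25 mg/kg-bw/day (adjusted p 0.108), which passed the test with the slide block (0.49, adjusted p 0.0391) and without mouse 9 of D1 (0.50, adjusted p 0.0366).

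The Fzd6 values of the other tissues were also higher on average at D3. In lung they were 0.52, 0.21, 0.17, 0.63 and 0.93 at D0 and 0.75, 0.92, 0.54, 1.00 and 1.09 at D3, a difference of 0.37 ± 0.16 (adjusted p 0.998, and 0.0515 with the slide block). In forestomach 0.92, -0.02, -0.23, 1.01 and 1.55 at D0 stood against 1.39, 1.64, 0.93, 1.40 and 1.56 at D3, a difference of 0.73 ± 0.35 (adjusted p 1, and 0.774 with the block). The groups overlapped in both tissues. The low D0 forestomach values were those of mice 2 and 3, and without the arrays that carried all glandular markers the difference in forestomach was 0.12 (adjusted p 0.987).

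Dkk3 in liver, at -1.06 to -0.73 at D0, gave -1.46, -1.38, -1.22, -1.17 and -1.01 at D3. Of the D3 values 4 lay below all D0 values. The difference of -0.36 ± 0.11 (SE, 95% interval -0.59 to -0.13) was not called (adjusted p 0.217, and 0.0959 with the slide block). Lrp5 in forestomach gave 0.45, 0.72, 0.57, 0.05 and 0.50 at D0 and -0.04, 0.28, 0.56, 0.11 and 0.42 at D3, which overlapped. Its difference of -0.20 ± 0.13 (adjusted p 1) turned to 0.08 without the arrays that carried all glandular markers.

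**Figure D5:**
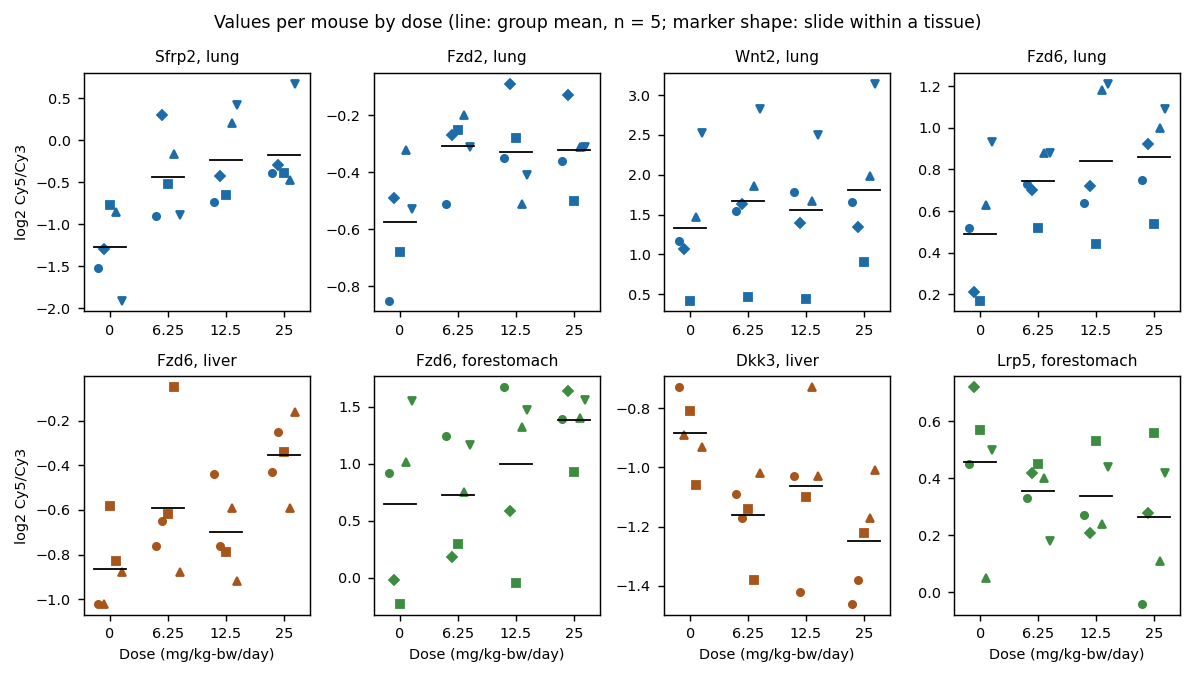
Log2 Cy5/Cy3 (vertical axes) of 6 members by dose (horizontal axis, mg/kg-bw/day, the 4 doses evenly spaced) in the tissues named above the panels, with 1 point per mouse, marker shape for the slide and a line at the mean of 5 mice. The D3 values of Sfrp2 in lung all lie above the D0 values, and the order of slides repeats from dose to dose for Wnt2 in lung.

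Other genes of the pathway were read from 7 lists, with the same tests. Their counts stand beside 44.4% of all probes called in lung against liver, 33.3% in lung against forestomach and 39.2% in liver against forestomach, and several of these counts are near those shares. In the vehicle mice all 3 genes of Wnt secretion and release were called in lung against liver, 2 in lung against forestomach and 2 in liver against forestomach. Wls, which carries Wnt proteins to the cell surface, averaged -0.33 ± 0.28 in lung, -0.63 ± 0.26 in forestomach and -3.39 ± 0.17 in liver (lung minus liver 3.05, adjusted p 3.55e-25). Porcn, the enzyme that attaches the lipid, averaged 0.84, 0.15 and -0.74 in the same order (lung minus liver 1.57, adjusted p 2.96e-16). Liver thus had the lowest level of both genes, and the third, Notum, which removes the lipid, was called higher in liver than in lung (-1.05).

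Of the 8 R-spondin genes and their receptors tested, which strengthen Wnt signalling by keeping Frizzled receptors at the surface, 5, 2 and 3 were called in lung against liver, lung against forestomach and liver against forestomach. With slide as a block, 3 were called in lung against forestomach. Rspo1 averaged 4.32 ± 0.93 in lung, 1.13 ± 0.20 in liver and 2.94 ± 1.98 in forestomach. Lgr5, an R-spondin receptor and target gene of pericentral liver, averaged 2.70 ± 0.49 in liver and was at or near background in lung (0.30) and forestomach (0.11). Other receptors gave 3, 1 and 2 calls of 3. Ror2, a Wnt5a receptor, was highest in forestomach (0.74 ± 0.62, against -0.42 and -1.05), and Ryk was highest in lung on average (0.66, against -0.64 in liver and 0.20 in forestomach). Among 10 further extracellular modulators 4, 4 and 8 were called. Dkkl1, a relative of the Dickkopf genes, averaged -1.90 ± 1.17 in lung and -2.38 ± 0.36 in liver, with differences from forestomach of -4.99 and -5.48 (adjusted p 1.19e-13 and 1.44e-15). Gpc3, a surface proteoglycan, averaged 5.31 ± 0.61 in lung and 0.22 ± 0.23 in liver, where it was not detected, and lung exceeded forestomach by 2.21 (adjusted p 0.000526).

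Inside the cell, 11, 9 and 8 of 18 genes were called in the 3 comparisons. Ctnnbip1, an inhibitor of the contact between beta-catenin and Tcf factors, averaged 2.33 ± 0.43 in forestomach, -0.04 ± 0.15 in liver and -0.88 ± 0.28 in lung, and Lef1 -0.24 in lung, -1.63 in forestomach and -2.66 in liver. General target genes gave 9, 7 and 10 calls of 14, among them Ccnd1 (cyclin D1), at 0.96 ± 0.23 in lung, -0.74 ± 0.30 in forestomach and -2.80 ± 0.30 in liver, and Nkd1, a feedback inhibitor, at 4.15, 2.27 and 0.82. Targets known from pericentral liver gave 9, 5 and 10 calls of 11, with 8 of the 9 higher in liver than in lung and all 10 higher than in forestomach. Rgn averaged 10.98 ± 0.30 in liver, 0.49 in lung and 1.25 in forestomach, and Cyp1a2, which was not detected in vehicle lung or forestomach, 6.22 ± 0.30 in liver. Some genes stand in more than 1 list.

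At D3 and over dose 0 genes of the 7 lists were called in any tissue. With the slide block 1 of the 54 list genes tested in lung was called at D3, beside 0.0677% of all probes, Rspo1 (0.75, adjusted p 0.0154 with the block and 0.998 without). The 4 mesothelial markers in lung had a median of -0.21 (-1.53 to 0.53) at D0 and 0.37 (0.12 to 0.85) at D3, and their part in the Rspo1 difference was not tested. Slopes called with the block in liver were 3 of 50 list genes, beside 2.61% of all probes, those of Tcf7l2, a transcription factor of the pathway (D3 change -0.65, slope adjusted p 0.035 with the block and 0.173 without), Gsk3b, a kinase that marks beta-catenin for destruction (-0.27, 0.0441 and 0.0731), and Dvl3, a relay protein below Frizzled (-0.31, 0.0465 and 0.25). In lung 1 of 54 slopes was called, beside 0.306% of all probes, that of Ccnd1 (D3 change 0.48, 0.0481 and 0.704). No other gene of these lists was called over dose with the block.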

How the data were processed

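Two-channel array data of 60 arrays (20 mice, 3 tissues) were re-analysed. The deposited scanner files hold for each spot the intensity of both channels, the local background and flags of spot quality (Feature Extraction version 10.7.3.1, build mm9, both named in the file headers). The deposited log2 ratios, normalized by the authors within arrays by LOWESS on median signals from which no background was subtracted, correlated with those computed here at 0.992 to 0.999. They were used as an alternative, with column medians of -0.0413 to -0.0143. The direction, Cy5 tissue over Cy3 reference, follows the labels.

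Each array had 62976 spots. After 3671 control spots were left out, median signals were normalized by loess in limma 3.58.1 (R 4.3.3, data.table version 1.17.8), values with an outlier flag (0.46%) were set missing, no signal was saturated, and repeated spots were averaged per probe (55681 probes). Symbols came from RefSeq accessions matched to a table of GRCm38.p6 (26413 probes, 47.4%). Probes whose Cy5 signal was well above background on 5 or more arrays of a tissue were tested (31022 in lung, 25893 in liver, 25070 in forestomach, 33255 in the tissue model). Linear models (lmFit, eBayes) gave two-sided tests, adjusted by the Benjamini-Hochberg method over all probes tested. The tissue comparison and the change between tissues came from 1 model of all 12 groups, and doses and slopes from a model per tissue. Calls needed an adjusted p of 0.05 or less and 1.5-fold, without a minimum fold for slopes and slide differences. Precision is limited by the 5 arrays of a group. The scripts were tested on simulated data.

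Groups and mouse numbers came from the labels, and a number is 1 animal in every tissue. Deviations of same-numbered arrays from their group means correlated at a median of 0.209 between lung and forestomach (over 0.1 in 18 of 20 mice), 0.0539 between lung and liver (5 of 20) and -0.00147 between liver and forestomach (3 of 20). Same-numbered lung and forestomach arrays also shared a slide, so mouse and slide cannot be told apart in the first value.

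The members and lists were chosen with earlier results of these data known. Values per mouse are given for the 4 members of each role with the largest difference between vehicle tissue means, for members called in any dose, slope or interaction test with or without the slide block, and for the 2 with the smallest p at D3 in each tissue. Of the pathway lists, genes called over dose and the 2 with the largest vehicle differences are named. Wnt2, Fzd7, Dkk4 and other members outside this rule, and Notum, were described after their values were seen.

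Alternatives were normexp background correction (offset 50), processed signals, the deposited log2 ratios, between-array scaling, no filter or a filter on all arrays of a tissue, a variance trend with robust estimation, other choices among probes, slide or mouse as a block, tissue means over 4 doses, dose steps, and each mouse left out. Leaving out the arrays with markers of other cell types, and the F test of slide, were chosen after seeing the data. The file headers' build has no genome here, so no probe coordinates are given.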

Additional observations from a re-analysis of the deposited data

Results flagged for a closer look

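In groups of 5 mice, 4 values lay far from the others of their group (gap over range above the 95% critical value of Dixon's test), out of 57 groups of named members. Chance picks about 1 in 20 groups.

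Fzd10 in the D0 lung of mouse 1 was 2.51, against 0.02 to 0.37 in the other 4 mice (gap over range 0.859), on the array that also carried squamous and skeletal muscle markers. Sfrp2 in the D3 lung of mouse 20 was 0.67, against -0.47 to -0.30 (0.851), on the array that carried hepatocyte markers. In the D0 liver of mouse 2, Sfrp2 was -2.28 against -2.91 to -2.88 (0.952) and Sfrp4 was -0.46 against -1.11 to -0.95 (0.754). Neither gene was well above background on any D0 liver array, so both liver values are differences between dim signals. The part of the other cell types in these values was not tested.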

How the results depend on the processing

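Between vehicle tissues, 16 members were called in every one of 35 alternatives for lung against liver, 9 of 36 alternatives for lung against forestomach and 15 of 35 for liver against forestomach. Leaving out each mouse in turn gave 19 to 20, 17 to 20 and 21 to 24 calls. With the mouse as a replicate block 20, 20 and 23 were called, and beside Fzd4 no call changed. With a filter on all arrays of a tissue 23 members were left to test, of which 13 were called between lung and forestomach, 69.2% of them higher in lung, against 50% of 20. It called 18 in lung against liver, losing Dkk4 and Wnt2, and 16 in liver against forestomach, losing Dkk2, Dkk4, Sfrp1, Sfrp4, Sfrp5, Wnt16, Wnt6 and Wnt7b. Without the forestomach array of D0 mouse 5 the share of lung against forestomach calls higher in lung was 61.1%. Fewer members tested accounts for the 7 lost with the filter in lung against forestomach, Dkk2, Sfrp1, Sfrp4, Wnt16, Wnt2, Wnt6 and Wnt7b.

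Processed signals gave 23, 22 and 26 calls, with Sfrp2 at -7.49 for liver minus forestomach, where it was dim in liver. Some other differences, once turned from log2 into folds, moved by over 1.5 times with these signals. On the log2 scale they were -5.57 for Sfrp4, -4.62 for Fzd10, -4.62 for Wnt4 and -4.16 for Wnt10a in the same comparison. In lung minus forestomach they were 4.40 for Wnt7a and 4.15 for Wif1, and the D3 change of Fzd6 in liver was 1.22. All kept the direction they had before. The median of all probes moved by 0.105 for lung minus forestomach with processed signals and by 0.102 for lung minus liver with the filter on all arrays.

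For dose, 0 members were called in any alternative but the slope in liver, where 1 (Fzd6) was called with the slide block and 1 without mouse 9 of D1 (0 to 1 over mice left out). The Fzd6 slope kept its sign throughout (0.40 to 1.08 over 25 mg/kg-bw/day, the highest with processed signals). Lrp5 in forestomach at D3 turned to 0.08 without the arrays with all glandular markers, which left 1 to 3 arrays a dose. With 5 mice a group the 95% intervals at D3 reached past 1.5-fold for many members, most of all in forestomach, so changes of that size cannot be told from none there. Genes dim in a tissue have only a bound there.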
